A study of Mus musculus with 4 samples.

Results

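The enzymes and regulators of cholesterol and fatty acid synthesis were followed in mouse sarcomas profiled by single-cell RNA sequencing. They are 33 named genes, taken by symbol from the 16121 genes that both expression tables hold, and all 33 were present in both tables. The tumors were allografts in the hind limb, on a 129/SvJae background with conditional Trp53 alleles (Trp53flox/flox). Hosts received intraperitoneal injections of vehicle (PBS) or of digoxin, a cardiac glycoside that blocks the sodium pump, at 2 mg/kg every 24 h, and tumors were taken after dose 4. Each group held 2 mice, and the mouse is the replicate. Host age, the way in which the alleles were recombined and the number of tumor lines behind the allografts are not given in the sources used here. The tumors were dissociated with enzymes and loaded on a droplet platform that reads RNA from its 3′ end and counts molecules by unique molecular identifiers (UMIs).

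Cells make sterols from acetyl units through the mevalonate pathway, and squalene, its first sterol-committed product, is closed and trimmed to cholesterol in the endoplasmic reticulum. Fatty acids are built from the same acetyl units by a separate set of cytosolic enzymes and are then desaturated and elongated. Transcription of both sets is driven by the sterol regulatory element-binding proteins, encoded by Srebf1 and Srebf2. Scap escorts them to the Golgi for cleavage when membrane sterol is low, and the Insig proteins hold the complex back when sterol is high.

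The promoters of Hmgcs1, Idi1 and Cyp51 are shown because these genes differed widely between mice, as described below. Fdps and Sqle, with wider differences than Hmgcs1, have no entry in the promoter table. Each is the 250 bases before the RefSeq gene start on build GRCm38.p6, written 5′ to 3′ along the gene. Capitals mark matches on either strand to the sterol regulatory element core TCACNCCAC, the CCAAT box CCAAT and the GC box GGGCGG, which bind the sterol regulatory proteins, NF-Y and Sp1 in that order. Hmgcs1 lies at chr13:119690101-119690350 on the plus strand, Idi1 at chr13:8885356-8885605 on the plus strand and Cyp51 at chr5:4104698-4104947 on the minus strand.
Hmgcs1: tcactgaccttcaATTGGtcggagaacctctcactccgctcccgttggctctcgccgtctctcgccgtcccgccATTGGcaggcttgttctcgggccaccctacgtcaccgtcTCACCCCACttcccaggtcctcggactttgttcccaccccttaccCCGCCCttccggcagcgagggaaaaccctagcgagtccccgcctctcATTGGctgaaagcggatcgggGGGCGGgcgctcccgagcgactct
Idi1: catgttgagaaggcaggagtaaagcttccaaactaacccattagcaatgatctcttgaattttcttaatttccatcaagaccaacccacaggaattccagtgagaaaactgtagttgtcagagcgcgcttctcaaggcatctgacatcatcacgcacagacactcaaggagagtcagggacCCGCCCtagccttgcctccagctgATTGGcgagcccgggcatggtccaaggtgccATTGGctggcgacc
Cyp51: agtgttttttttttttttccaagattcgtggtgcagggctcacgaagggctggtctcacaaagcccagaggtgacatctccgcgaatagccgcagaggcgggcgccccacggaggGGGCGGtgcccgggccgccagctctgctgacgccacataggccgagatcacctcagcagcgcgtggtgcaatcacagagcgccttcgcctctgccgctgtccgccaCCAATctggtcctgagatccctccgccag

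RefSeq's table held promoters for 26 of the 33 members, 34 windows of 300 bases from 250 before to 50 after a start, among 32851 windows in all. The sterol element core was in 1 member window, that of Hmgcs1, and in 1.24% of all windows. The CCAAT box was in 22 of 34 member windows and in 37.4% of all windows. The GC box was in 25 of 34 and in 35.7%. The E-box CACGTG, which the sterol regulatory proteins also bind and which overlaps none of the other motifs in its letters, was in 7 of 34 and in 7.15%. Those 7 windows belong to 6 of the 26 members, since windows of a gene can overlap and share a site. These matches describe letters in the windows, not binding.

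The malignant table held 3976 to 6269 cells per mouse with a median of 46799 to 57658 UMIs per cell, and the non-malignant table held 3014 to 3344 cells per mouse with a median of 15837 to 16671 UMIs. Libraries shared 14 to 25 cell barcodes per pair. Cell types carry the names in the deposited annotation, and a pair of these names went against marker genes. Cells named Microglia carried Siglech at a mean of 2449 CPM and Ccr9 at 591 CPM, which are markers of plasmacytoid dendritic cells, while the microglial genes P2ry12 and Tmem119 stood at 22.7 and 1.43 CPM. Cells named Epithelial carried Cdh5 of endothelium at 888 CPM and Epcam of epithelium at 0.122 CPM. Vehicle replicate 2 stood apart in its host cells, since Xist, which is made from the inactive X chromosome, was at 635, 0.161, 752 and 753 CPM in the macrophages of vehicle replicates 1 and 2 and digoxin replicates 1 and 2. The Y-linked gene Ddx3y was at 1.86, 87.7, 1.74 and 2.28 CPM in the same macrophages, so by these genes vehicle replicate 2 had a male host and the other 3 mice female hosts. The cell names of vehicle replicate 2 also carry the number 3, while those of the other mice carry their replicate number. In malignant cells, in the same order of mice, Ddx3y was at 48.1, 49.1, 49.3 and 43.1 CPM and Xist at 16.4, 0.462, 16.9 and 15.25 CPM. Ddx3y thus did not set vehicle replicate 2 apart there, while Xist did. Host sex and the difference between the vehicle mice described below cannot be told apart.

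Levels below are mean CPM, a gene's UMIs per 1000000 UMIs of a cell averaged over the cells of a mouse, and 4 values in a row always follow the order vehicle replicate 1, vehicle replicate 2, digoxin replicate 1, digoxin replicate 2. Because 3′ tags give about one count per molecule, no length correction was applied, and levels are compared for a given gene between cells, not between genes.

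In malignant cells the sterol enzymes differed more between the vehicle mice than between treatments. Vehicle replicate 1 had the highest and vehicle replicate 2 the lowest level for most of the pathway, and both digoxin mice lay between them. Summed over the 6 mevalonate and the 11 squalene and sterol enzymes, the level was 792, 456, 666 and 702 CPM. The summed level in vehicle replicate 1 was thus 1.74 times that in vehicle replicate 2.

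Among the mevalonate enzymes, Hmgcs1, a synthase early in the pathway, was at 71.0, 40.6, 60.1 and 58.1 CPM. Idi1, which isomerizes isopentenyl diphosphate, was at 65.0, 28.3, 53.0 and 54.8 CPM. Fdps, which makes farnesyl diphosphate at the branch between sterols and isoprenoids, was at 159.8, 60.3, 112 and 125 CPM. For each of these genes both digoxin mice fell inside the range of the vehicle mice, and the ratio of vehicle replicate 1 to 2 was 1.75 for Hmgcs1, 2.29 for Idi1 and 2.65 for Fdps. The kinases Mvk and Pmvk and the decarboxylase Mvd kept the same order of vehicle mice at lower ratios, 1.54, 1.46 and 1.41.

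The squalene and sterol enzymes followed the same order. Sqle, the epoxidase that commits squalene to sterols, was at 86.8, 49.1, 77.7 and 85.1 CPM. Cyp51, the lanosterol demethylase, was at 72.6, 34.7, 60.2 and 69.2 CPM. Msmo1, the sterol methyl oxidase of the next steps, was at 67.7, 44.8, 63.1 and 62.6 CPM. Vehicle replicate 2 was the lowest mouse for all 11 genes of this step, and vehicle replicate 1 was the highest for 10 of them. The exception was Hsd17b7, a sterol ketoreductase, at 11.8, 9.99, 11.7 and 12.5 CPM, and Ebp, the sterol isomerase, barely moved at 73.3, 65.9, 70.9 and 71.7 CPM.

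**Figure D1:**
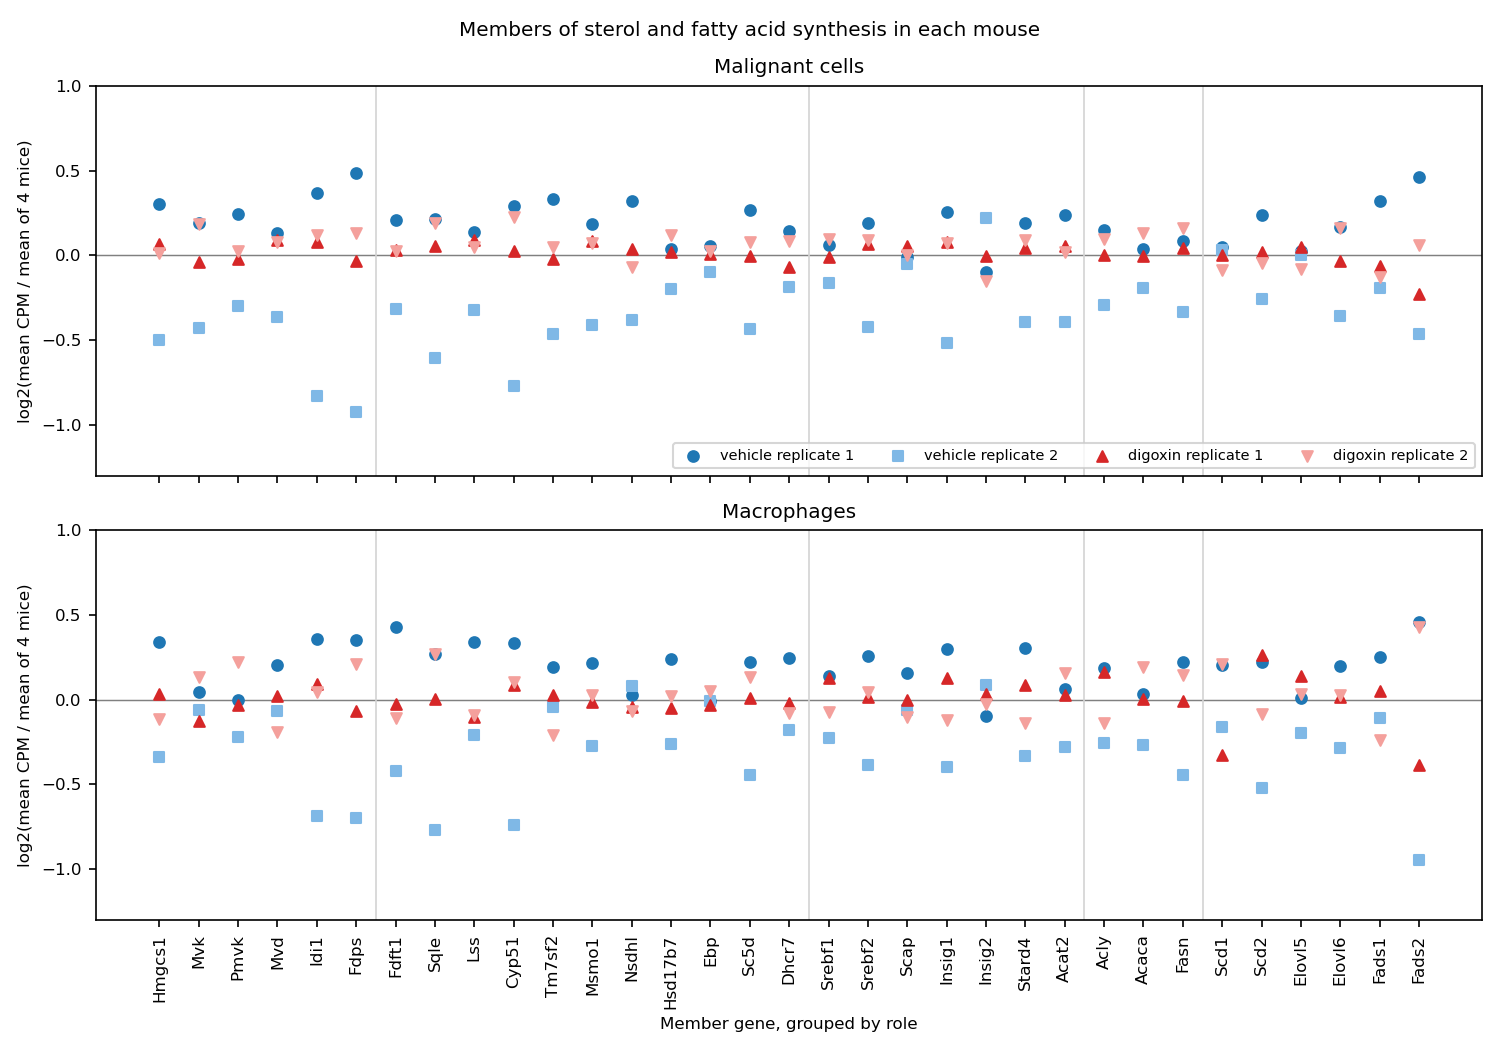
Each point is one mouse's mean CPM of a member relative to the mean of the 4 mice, on a log2 axis, in malignant cells (top) and macrophages (bottom), with vertical lines between the role groups. Vehicle replicate 2 (light squares) is the lowest mouse for 30 of 33 members in malignant cells and for 24 of 33 in macrophages, against 30.8% and 37.8% of all genes tested.

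The regulators split. Srebf2, which drives the sterol genes, was at 49.5, 32.3, 45.4 and 46.2 CPM, and Insig1, its feedback brake and transcriptional target, at 28.2, 16.5, 24.9 and 24.8 CPM. Both had the order of the enzymes. Scap was nearly level at 19.1, 18.6, 20.04 and 19.3 CPM, and Srebf1, whose product favors fatty acid genes, was at 28.9, 24.7, 27.5 and 29.6 CPM. Insig2, the second Insig gene, ran the other way, at 34.3, 42.6, 36.6 and 33.1 CPM, and was the only member lower in vehicle replicate 1 than in vehicle replicate 2 in malignant cells.

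The fatty acid genes varied in their spread. Fasn, the fatty acid synthase, was at 66.2, 49.6, 64.4 and 70.0 CPM, and Acly, which releases cytosolic acetyl-CoA from citrate, at 86.1, 63.4, 77.8 and 83.1 CPM. The delta-9 desaturases of chromosome 19 differed from each other. Scd2 was at 149.4, 105.9, 129 and 123 CPM, with vehicle replicate 1 highest, whereas Scd1 was nearly level at 44.0, 43.4, 42.5 and 40.0 CPM. The elongase Elovl5 was nearly level too, at 21.8, 21.5, 22.1 and 20.2 CPM, while Elovl6, which extends palmitate, was at 54.5, 37.9, 47.3 and 54.1 CPM. Fads1 and Fads2, desaturases of polyunsaturated fatty acids, had ratios of vehicle replicate 1 to 2 of 1.43 and 1.89.

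Macrophages of the same mice showed the same order for most sterol genes. Their summed sterol synthesis level was 545, 389, 476 and 506 CPM, and vehicle replicate 1 stood above vehicle replicate 2 for 15 of the 17 enzymes. Idi1 was at 42.8, 20.8, 35.5 and 34.4 CPM in macrophages. Cyp51 was at 45.4, 21.6, 38.2 and 38.7 CPM, and Sqle at 28.3, 13.7, 23.5 and 28.2 CPM. For Idi1, Cyp51 and Sqle both digoxin mice lay between the vehicle mice. Ebp and Nsdhl, a sterol dehydrogenase, did not follow the order in macrophages, at 103.9, 104.1, 102 and 109 CPM and at 9.73, 10.1, 9.24 and 9.11 CPM. Both genes lie on the X chromosome, and the part of host sex was not tested.

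On the log2(CPM + 1) scale, vehicle replicate 1 exceeded vehicle replicate 2 for 32 of 33 members in malignant cells, against 50.6% of the 17138 genes tested, and for 30 of 33 in macrophages, against 59.5% of 13734 genes. A difference above 0.4, a size chosen after the values were seen, was reached by 23 of 33 members and 3.34% of all genes in malignant cells, and by 17 of 33 and 10.3% in macrophages. The median absolute difference of the members was 0.49 between the vehicle mice and 0.08 between the digoxin mice in malignant cells, and 0.43 and 0.14 in macrophages. Over all genes these medians were 0.10 and 0.08, and 0.17 and 0.13. One mouse stands on each side of these differences, so they carry no test.

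**Figure D2:**
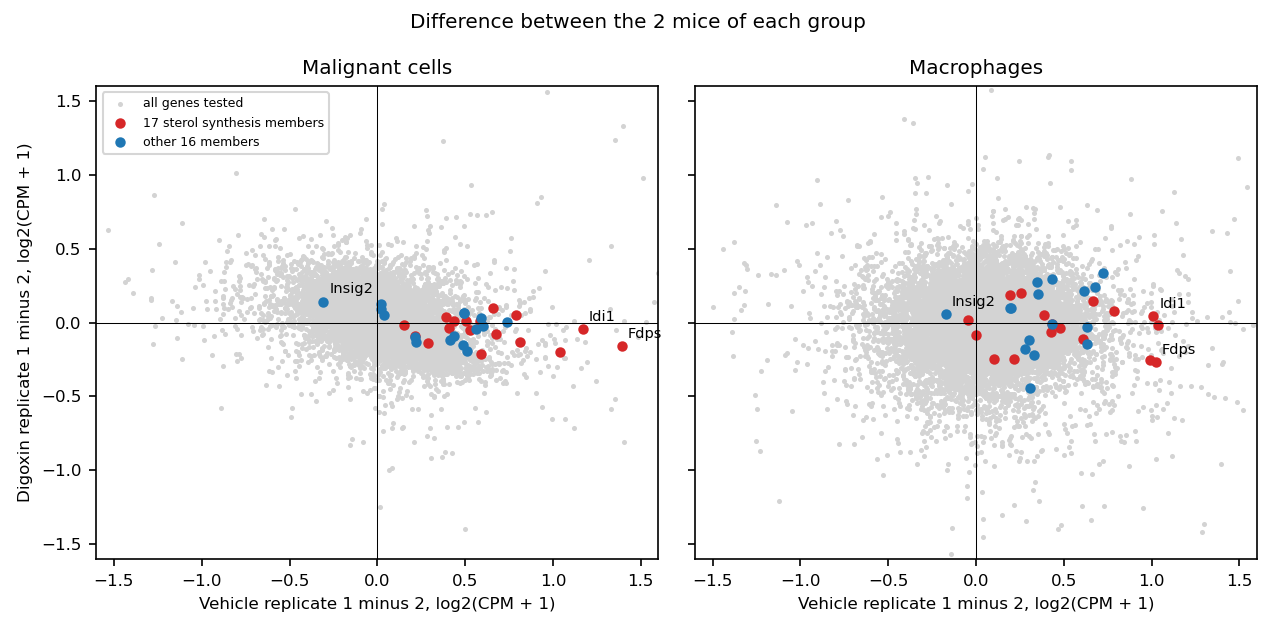
Each point is a gene, with the difference between the vehicle mice on the horizontal axis and between the digoxin mice on the vertical axis, both in log2(CPM + 1), for malignant cells (left) and macrophages (right); genes beyond the axes are not drawn. Members spread to the right along the vehicle axis, out to 1.39 for Fdps in malignant cells, and have a median absolute difference on the digoxin axis of 0.08 in malignant cells and 0.14 in macrophages.

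Several other measures moved with the same mice. Malignant cells of vehicle replicate 2 were shallower, with a median of 46799 UMIs against 57658 in vehicle replicate 1. Among malignant cells with 40000 to 60000 UMIs, 1092 and 1466 cells of the vehicle mice, the ratio of vehicle replicate 1 to 2 for summed sterol synthesis was 1.75. The 5 cycling markers summed to 563, 373, 469 and 589 CPM in malignant cells and to 512, 353, 425 and 497 CPM in macrophages, so they too were lowest in vehicle replicate 2. Non-malignant cells had a median mitochondrial share of 4.98, 6.24, 4.64 and 4.42%, highest in vehicle replicate 2. In cells with no UMI of the cycling markers the sterol ratio was 1.57 in malignant cells, from 347 and 830 cells, and 1.67 in macrophages, from 692 and 752 cells. In macrophages with such a UMI the summed sterol level was 508 and 392 CPM in the vehicle mice. The macrophages of vehicle replicate 2 also held more cells of the M2 sub-cluster, 1511 of 2456 against 948 of 2418 in vehicle replicate 1. Within M2 cells alone the summed sterol level was 475, 379, 460 and 472 CPM, and within M1 cells it was 622, 400.3, 497 and 558 CPM. Macrophage markers in malignant cells summed to 500.03, 536, 387 and 409 CPM, against at least 18057 CPM in macrophages. The part of these markers and of the mitochondrial share in the difference was not tested.

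The order of the vehicle mice was also read in the other populations. Cells named Microglia had 17 of 29 members tested higher in vehicle replicate 1, T cells 18 of 29 and NK cells 18 of 30, against 51.2%, 49.9% and 53.8% of all genes there. Cells named Osteoclasts had 20 of 24, cells named Epithelial 22 of 30 and fibroblasts 21 of 30, against 55.1%, 49.8% and 56.3%. Summed sterol synthesis was 528, 369, 466 and 561 CPM in the cells named Osteoclasts and 552, 531, 526 and 571 CPM in T cells.

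To ask whether digoxin changed the pathway, both digoxin mice were compared with both vehicle mice in each population with at least 20 cells in every mouse. No member passed the test in any of them. In malignant cells limma called 0 of 33 members, and the background was 0% of the 17138 genes. In macrophages it called 0 of 33, again with a background of 0%. The median log2 difference of the members, digoxin minus vehicle, was 0.12 in malignant cells and 0.05 in macrophages, and that of all genes was -0.01 in both.

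In malignant cells the 27 members with a difference above 0 included all 17 sterol enzymes, yet for none of these enzymes were both digoxin mice outside the vehicle range. Over all members both digoxin mice were higher than both vehicle mice for 1 (Scap) and lower for 1 (Scd1), where 12.8% and 16.5% of all genes did so. In macrophages the same counts were 1 (Elovl5) and 1 (Nsdhl), against 13.6% and 17.3%. Unadjusted p was under 0.05 for 0 members in either population, compared with 585 and 555 of all genes. By edgeR on recovered UMIs 0 genes were called in either population, and by DESeq2 44 and 20 genes, 0 of them members.

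The members with the smallest p at a mean of at least 20 CPM had differences near the size of their SE. In malignant cells Fasn was at 57.9 ± 11.8 CPM (SD, n = 2) with vehicle and 67.2 ± 3.98 CPM with digoxin, a digoxin minus vehicle change of 0.22 ± 0.145 (SE) in log2 units at a limma adjusted p of 0.9999. Sqle was at 67.9 ± 26.7 CPM with vehicle and 81.4 ± 5.25 CPM with digoxin, a log2 difference of 0.31 (SE 0.256). Cyp51 was at 53.6 ± 26.8 and 64.7 ± 6.33 CPM, a log2 difference of 0.35 (SE 0.327). For all of these the vehicle SD exceeded the digoxin SD, and the groups overlapped. Acaca, the carboxylase that makes malonyl-CoA, differed by 0.14 (SE 0.108) and Scd1 by -0.08 (SE 0.0737), on the same scale and at the same adjusted p.

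In macrophages Pmvk was at 65.7, 56.4, 64.4 and 76.7 CPM, a digoxin minus vehicle change of 0.20 ± 0.138 (SE) in log2 units at a limma adjusted p of 0.9996. Elovl5 was at 21.1, 18.3, 23.0 and 21.4 CPM, a log2 difference of 0.17 (SE 0.137). Sqle differed by 0.37 (SE 0.308), Scd2 by 0.23 (SE 0.247) and the delta-5 desaturase gene Fads1 by -0.16 (SE 0.166), each with overlapping groups. All 5 had the same adjusted p.

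Leaving out vehicle replicate 2 turned the direction of the members' median in malignant cells and macrophages, and leaving out vehicle replicate 1 did not. Without vehicle replicate 1 the members' median log2 difference was 0.34 in malignant cells and 0.27 in macrophages, and unadjusted p was under 0.05 for 22 and 9 members and for 1428 of 17349 and 1913 of 14181 genes. Without vehicle replicate 2 the median was -0.11 and -0.19, and 7 and 2 members had such a p, as did 968 of 17245 and 476 of 14190 genes. No member was called by limma in these fits. In the M1 sub-cluster without vehicle replicate 1, 1 member was called, Cyp51, by 0.86 in log2 units at a limma adjusted p of 0.0304, and the background was 1.77% of 12642 genes. In that fit the remaining vehicle mouse is assumed to vary as the digoxin mice do.

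The difference in digoxin effect between macrophages and malignant cells was fitted as an interaction term, blocking on mouse. Limma called 0 of 33 members, with a background of 0% of 13532 genes, and edgeR called 0 genes. The members' differences in effect, macrophages minus malignant cells, ran from -0.32 for Mvd to 0.23 for Scd2.

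In the other populations limma again called 0 members. The background was 0% in M1, M2, Highly proliferative M2, T cell, Fibroblast and Microglia cells, 0.0128% in Osteoclasts, 0.0765% in NK cells and 0.467% in Epithelial cells. Unadjusted p was under 0.05 for 3 members in T cells (Mvd, Elovl5 and Elovl6), for 3 in Osteoclasts (Sqle, Insig2 and Fasn), for 2 in Microglia (Srebf2 and Acaca) and for 1 in M1 (Fads1). Over all genes it was under 0.05 for 382 of 8930 in T cells, 498 of 7803 in Osteoclasts, 278 of 5818 in Microglia and 942 of 12182 in M1, with 29, 24, 29 and 32 members tested. Mvd, Elovl6, Sqle, Fasn and Fads1 are named here after their values were seen.

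In cells named Microglia, Srebf2 was at 202, 200.4, 155 and 138 CPM, a digoxin minus vehicle change of -0.46 ± 0.210 (SE) in log2 units at a limma adjusted p of 0.98. Acaca there was at 14.2, 14.6, 30.2 and 38.3 CPM, a digoxin minus vehicle change of 1.19 ± 0.544 (SE) in log2 units at a limma adjusted p of 0.98, from 44 UMIs in all. The groups did not overlap for either gene. In these cells both digoxin mice were higher for 4 and lower for 6 of 29 members, and for 974 and 940 of 5818 genes. Insig2 in cells named Osteoclasts was at 36.6, 23.4, 19.7 and 8.14 CPM, a digoxin minus vehicle change of -1.14 ± 0.409 (SE) in log2 units at a limma adjusted p of 0.781. Elovl5 in T cells was at 24.8, 34.6, 51.4 and 40.8 CPM, a digoxin minus vehicle change of 0.63 ± 0.260 (SE) in log2 units at a limma adjusted p of 0.979. Both digoxin mice were again outside the vehicle range, lower for Insig2 and higher for Elovl5. In Osteoclasts they were higher for 7 and lower for 2 of 24 members, and for 1686 and 1230 of 7803 genes. In T cells these counts were 7 and 2 of 29 members, and 1274 and 1699 of 8930 genes.

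The remaining leading members differed as follows on the log2 scale, digoxin minus vehicle. Pmvk differed by 0.40 (SE 0.220) in NK cells and by 0.32 (SE 0.149) in M2 cells, higher in both digoxin mice in each. Srebf2 differed by -0.33 (SE 0.186) in NK cells and by 0.50 (SE 0.281) in cells named Epithelial, where Insig2 differed by -0.38 (SE 0.242). The groups did not overlap in these NK and Epithelial values. Both digoxin mice were higher for 9 and lower for 3 of 30 members in NK cells, and for 1749 and 1545 of 9147 genes. In cells named Epithelial these counts were 4 and 5 of 30 members, and 1827 and 1675 of 10272 genes. In M2 cells they were 2 and 0 of 32 members, and 1878 and 1462 of 12545 genes. Mvk in Osteoclasts differed by 0.57 (SE 0.288) and Sc5d, the sterol desaturase, by 0.38 (SE 0.235) in T cells and -0.45 (SE 0.332) in fibroblasts. Acly in fibroblasts differed by 0.45 (SE 0.325), Scd2 and Sqle in M1 by 0.22 (SE 0.169) and 0.36 (SE 0.329), and Sqle in M2 by 0.43 (SE 0.275). In Highly proliferative M2 cells Fasn differed by 0.20 (SE 0.154) and Hmgcs1 by -0.20 (SE 0.182). None of them passed the limma threshold.

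Neighboring genes of the pathway were read from 4 lists of 44 genes, all of which were tested in both main populations. Limma called 0 of them in malignant cells and 0 in macrophages, against a background of 0% in each. In malignant cells the median log2 difference with digoxin was -0.05 for 7 genes of sterol regulatory protein processing and 0.00 for 9 genes of the isoprenoid branch. It was 0.06 for 15 genes of fatty acid supply and -0.12 for 13 genes of sterol transport, storage and efflux. Ggps1, which makes the geranylgeranyl chain, was at 23.3, 23.0, 20.8 and 19.2 CPM, and Npc2, which carries sterol out of lysosomes, at 567, 561, 531 and 469.7 CPM. Both had both digoxin mice lower, at log2 differences of -0.20 (SE 0.085) and -0.17 (SE 0.0848).

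In macrophages Nus1, a subunit of the enzyme that makes dolichol precursors, was at 109, 77.3, 114 and 122 CPM, a log2 difference of 0.36 (SE 0.170). Acsl4, which activates polyunsaturated fatty acids, was at 49.0, 32.95, 48.2 and 49.5 CPM, a log2 difference of 0.27 (SE 0.190). Vehicle replicate 1 exceeded vehicle replicate 2 by more than 0.4 for 3 of the 44 genes in malignant cells and 7 of 44 in macrophages, and fell below it by more than 0.4 for 2 and 2. Among the 33 members these counts were 23 and 17 above, and 0 and 0 below. Abca1, the sterol efflux pump, was picked after its values were seen. It was at 14.7, 23.6, 17.02 and 13.8 CPM in malignant cells and at 172, 255, 233 and 189 CPM in macrophages, so vehicle replicate 2 was the highest mouse in both.

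Between cell types, the sterol enzymes were highest in the cells named Microglia. Their summed sterol synthesis level was 1656, 1575, 1837 and 1228 CPM, and the lowest of these mice was above every mouse of every other tested population. Levels are a description and carry no test. Among the 8 types with at least 20 cells in each mouse, malignant cells included and sub-clusters left out, the cells named Microglia had the highest mean for 24 of 33 members. For 14 of these, the lowest mouse was above the highest mouse of the type in second place. Of 14703 genes with a mean of at least 1 CPM in some type, 16.4% were highest in the cells named Microglia and 5.54% were highest there without overlap.

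**Figure D3:**
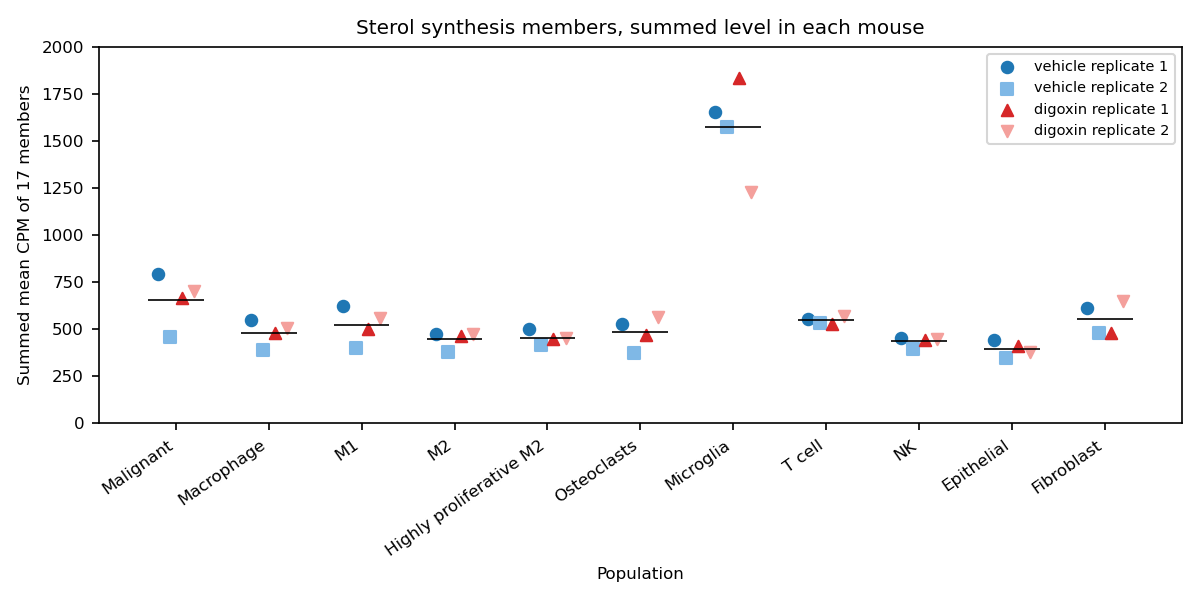
Points are the summed mean CPM of the 17 sterol synthesis enzymes in each mouse, with a line at the mean of the 4 mice, for each tested population. Cells named Microglia lie between 1228 and 1837 CPM and all other tested populations lie below 800. Vehicle replicate 2 is lowest in malignant cells, macrophages and each macrophage sub-cluster. Dendritic cells, too few for a test, are not drawn.

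Idi1 in these cells was at 218, 172, 239.6 and 173 CPM. Its mean was 200.4 CPM, against 50.3 CPM in malignant cells, the next of the 8 types. Srebf2 had a mean of 174 CPM against 75.3 CPM in T cells, and Scap 83.1 CPM against 20.3 CPM in cells named Epithelial. Sc5d had a mean of 82.4 CPM against 33.7 CPM in T cells. Not every regulator was highest there, since Insig2 had a mean of 20.7 CPM in these cells and 57.4 CPM in fibroblasts, and Stard4 was highest in cells named Epithelial. Srebf1 was highest in the cells named Microglia but overlapped the fibroblast values. The fatty acid synthesis sum of the cells named Microglia was 0.932 ± 0.111 (SD, n = 4 mice) times that of macrophages.

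Fads2, the delta-6 desaturase of polyunsaturated fatty acids, was highest in these cells, at 34.6, 29.0, 19.0 and 14.3 CPM. The next of the 8 types, fibroblasts, had a mean of 2.00 CPM. At least 1 UMI of Fads2 was found in 42 of 182 cells named Microglia (23.1%), in 13 of 203 fibroblasts (6.40%), in 3 of 41 B cells (7.32%), in 82 of 10363 macrophages (0.791%) and in 4 of 579 T cells (0.691%). The median depth was 9197 to 10460.5 UMIs in the cells named Microglia and 7244 to 8231.5 in T cells. In macrophages the median depth was 16070 to 17049 UMIs.

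Compared with macrophages, the cells named Microglia had 22 of 33 members above and 2 below in all mice against all mice, where 23.1% and 23.2% of 11843 genes with a mean of at least 1 CPM did so. The members below were Scd1 and Fads1, and Scd1 rested on 5 UMIs in 182 cells named Microglia. Macrophage markers in these cells summed to 478 to 1503 CPM, against 18057 to 27303 CPM in macrophages.

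Malignant cells exceeded macrophages for 16 of 33 members and lay below for 6, where 43.8% and 36.6% of 12313 genes did so. Their summed sterol synthesis was 1.35 ± 0.123 times that of macrophages of the same mouse (SD, n = 4 mice), and 1.53 times on summed UMIs. Sqle was 3.24 ± 0.255 times, Fasn 3.02 ± 0.213 times and Elovl6 6.05 ± 0.394 times the macrophage level. Scd1 had the widest gap, at 9.26 ± 1.87 times. Members that ran the other way were Pmvk, at 0.512 ± 0.0677 times the macrophage level, Mvd, Tm7sf2, Ebp, Dhcr7 and Fads1. Malignant cells had the highest mean of the 8 types for Fasn, Acaca and Elovl6, but only for Fasn was their lowest mouse, at 49.6 CPM, above the highest mouse of the type in second place, NK cells at 39.5 CPM. Of the 14703 genes, 15.04% were highest in malignant cells and 6.33% were highest there without overlap.

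**Figure D4:**
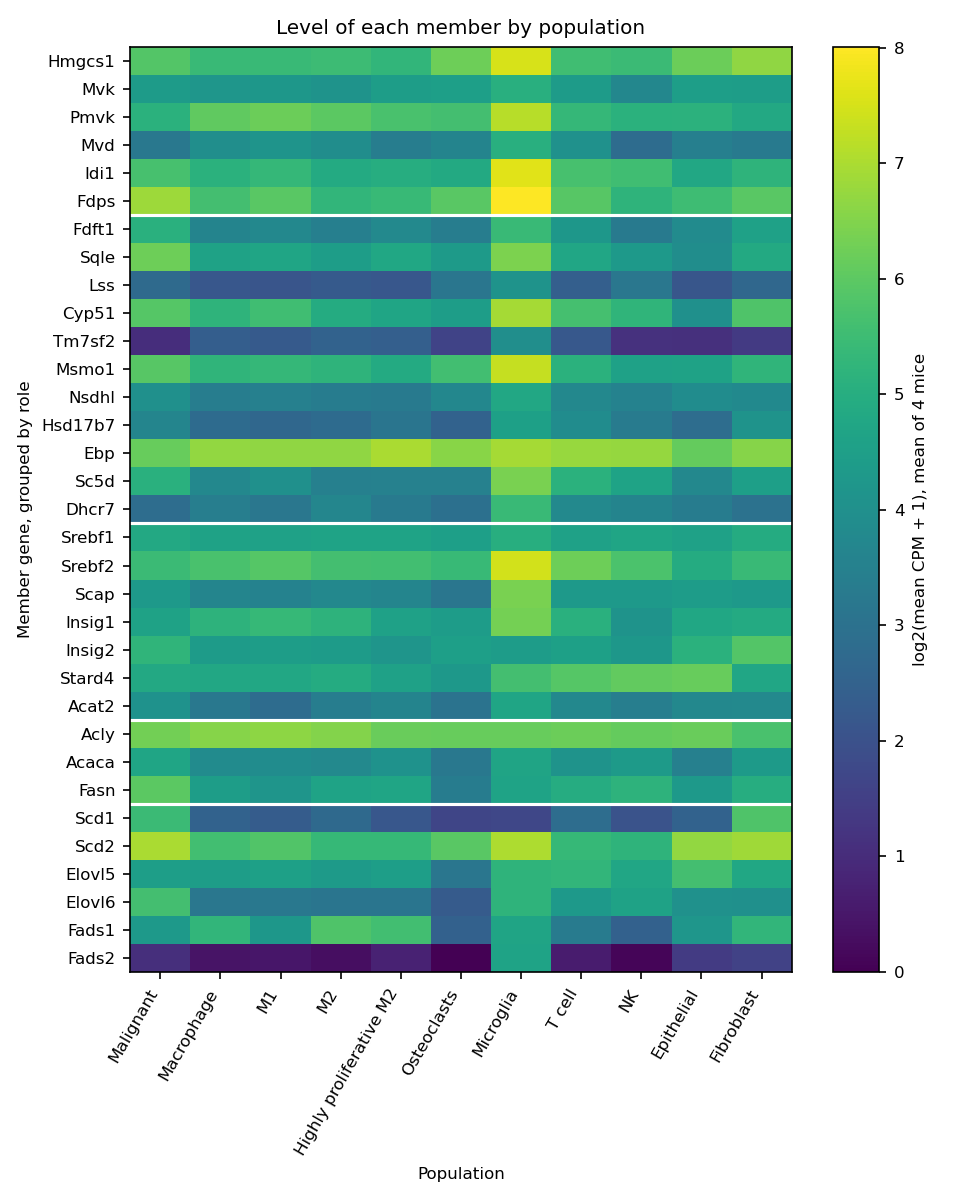
Color gives log2(mean CPM + 1), averaged over the 4 mice, for each member (rows, grouped by role) in each tested population (columns). The Microglia column is brightest in most sterol rows, with Fdps at a mean of 256 CPM. The Scd1 row is bright in malignant cells and fibroblasts, at 42.5 and 54.8 CPM.

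Scd1 was at 44.3, 64.2, 54.8 and 55.7 CPM in fibroblasts, near its level in malignant cells, and at means of 4.72 CPM in macrophages, 6.27 CPM in T cells, 3.15 CPM in NK cells and 4.78 CPM in cells named Epithelial. B cells, too few for a test, had a mean of 174 CPM from 41 cells and 70 UMIs, with at least 1 UMI in 29 cells. The adipocyte gene Adipoq had a mean of 0.0579 CPM in malignant cells and 0.102 CPM in macrophages. It is not given here for fibroblasts or B cells, and its bearing on the Scd1 levels was not tested. Among dendritic cells, also too few for a test, Pmvk had a mean of 305 CPM, against 139 CPM in cells named Microglia and 65.8 CPM in macrophages.

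Macrophage sub-clusters differed for 3 to 9 members. Fads1 was at 67.4, 42.3, 64.7 and 45.5 CPM in M2 cells and at 22.2, 18.8, 14.2 and 15.5 CPM in M1 cells, with no overlap of mice. M1 cells were above M2 cells in all mice for Sc5d alone and below for Tm7sf2 and Fads1. These are 1 and 2 of 33 members, where 12.2% and 30.6% of 11478 genes did so. Against Highly proliferative M2 cells, M1 cells were above for 5 members and below for 4, where 14.8% and 37.8% of 11472 genes did so. M2 cells were above Highly proliferative M2 cells for 2 members and below for 3, where 15.2% and 26.2% of 11525 genes did so. Highly proliferative M2 cells had a summed sterol level of 499.7, 415, 446 and 449 CPM, which overlapped the M1 and M2 values. Stard4, which moves sterol between membranes, was highest in cells named Epithelial, NK cells and T cells, at means of 69.9, 67.5 and 58.5 CPM against 27.4 CPM in malignant cells, and the mice of these 3 types overlapped.

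Within each mouse the levels of many sterol enzymes were correlated from one malignant cell to the next. Each cell was thinned to 30000 UMIs, which left out 610, 1475, 735 and 738 shallower cells, and Spearman's rho was taken across the remaining 3897, 4794, 3476 and 3238 cells. The median rho over 136 pairs of sterol enzymes was 0.172, 0.124, 0.186 and 0.161. These are descriptions across cells of one tumor, which share a library, so they carry no p.

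The tightest pair was Idi1 with Fdps, at 0.645, 0.529, 0.661 and 0.655. Fdps with Cyp51 followed at 0.613, 0.463, 0.627 and 0.593, and Sqle with Msmo1 was at 0.566, 0.498, 0.559 and 0.552. Idi1, Fdps, Cyp51, Sqle and Msmo1 made up the 10 highest pairs. Among pairs of fatty acid members, Acly with Fasn was highest by the mean of the mice, at 0.408, 0.347, 0.389 and 0.386.

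Single members ranged widely in their correlation with sterol synthesis. The median rho with the sterol enzymes was taken over all enzymes and mice together. For a sterol enzyme itself, each pair was first averaged over mice. The median was 0.212 for Scd2, 0.212 for Elovl6, 0.200 for Srebf2, 0.197 for Acly and 0.189 for Fasn. It was 0.0449 for Ebp, 0.0103 for Scap, 0.00826 for Elovl5 and -0.0383 for Insig2, against 0.338 for Fdps and 0.322 for Idi1. Low counts lower a rho, so that of Tm7sf2, at 0.0357 and a mean level of 1.09 CPM, cannot be read as independence.

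**Figure D5:**
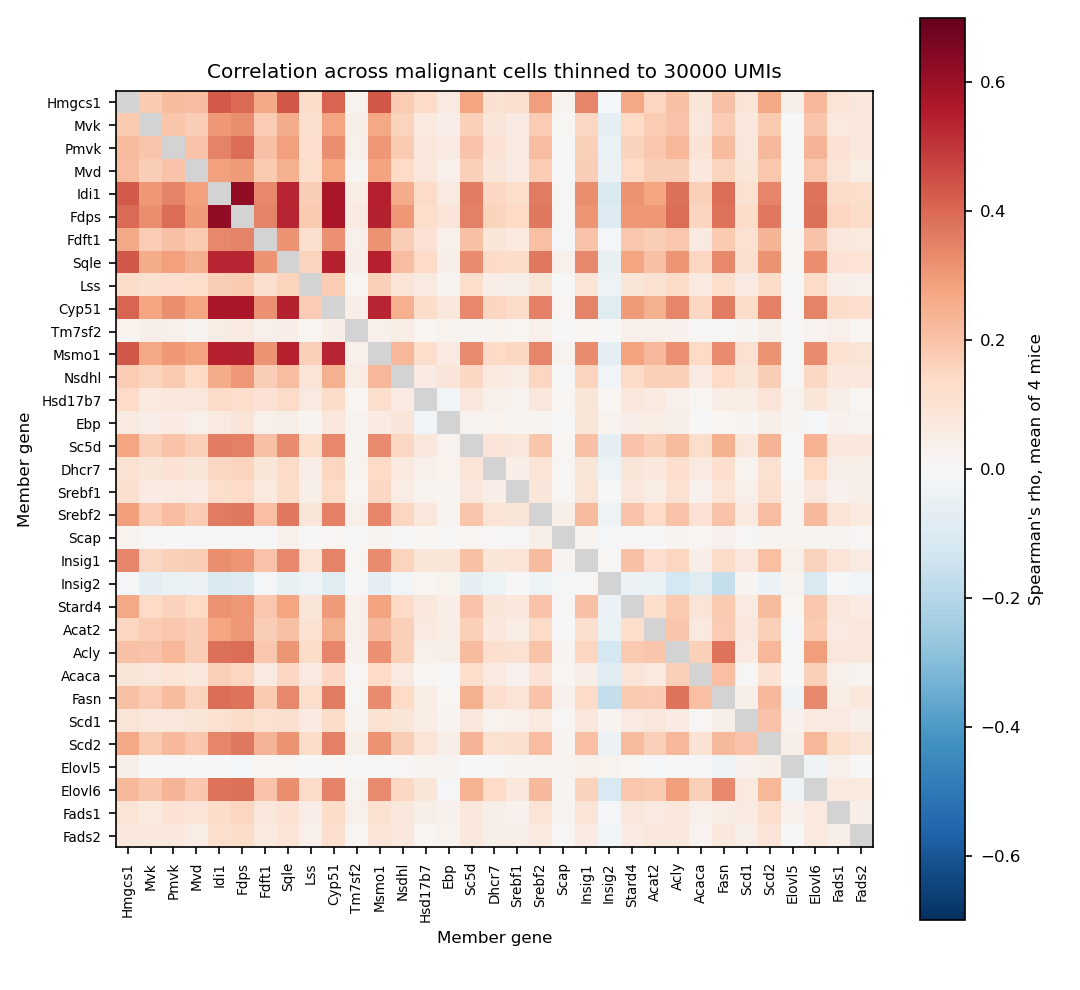
Each square gives Spearman's rho between 2 members across malignant cells thinned to 30000 UMIs, as the mean of the 4 mice, with the diagonal in grey. Idi1, Fdps, Sqle, Cyp51 and Msmo1 form the darkest squares, up to 0.623 for Idi1 with Fdps, and the Insig2 row is pale or blue.

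By the median rho of a list, sterol enzymes were tied more loosely to other genes than to each other. The lists were not matched for level. Their median rho with the fatty acid members was 0.0719 to 0.117 per mouse over 153 pairs, and with the isoprenoid branch 0.0172 to 0.0192. With the genes of sterol transport it was -0.0164 to -0.00938, and with the 5 cycling markers 0.0775 to 0.0955. Npc2 had a median rho of -0.113 and Abca1 of -0.104 with the sterol enzymes, while Tmem97, a sterol transport gene also known as a target of the sterol regulatory proteins, had 0.174. Without thinning the sterol pairs had a higher median, 0.219 to 0.299 per mouse, and so did the cycling markers, 0.192 to 0.209.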

How the data were processed

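The authors deposited a table of malignant and a table of non-malignant cells. Per the submitters' processing notes, Cell Ranger 3.0.2, Seurat 3.0.2 and build mm10 were used, with no roles stated. Each deposited value is a natural log, taken of a gene's UMIs per 10000 UMIs of its cell after adding 1. With the deposited UMI count per cell, 100% of values above 0 gave whole UMIs within 0.01. Columns of cells with no sample numbered 0.

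UMIs were scaled to CPM per cell, averaged per mouse and population, and log2(mean CPM + 1) was fitted with limma 3.58.1 (empirical Bayes variance trend, Benjamini-Hochberg threshold 0.05, all genes kept by edgeR's filterByExpr). Fold changes on this scale understate those of low genes. The test was also run on simulated counts with the same fixed spread for every gene and no mouse set apart. That run therefore does not give its power for these members. Populations needed at least 20 cells in each mouse. The Neutrophil, Unknown, B cell and Dendritic groups did not reach this and were not tested. Values of some members are given for B cells and Dendritic cells. The design's comparison by cycle class was not run, since the malignant cell table used here gives no class. Scrublet (scanpy 1.11.5, expected share 0.06) marked 1367 of 31611 cells (4.32%), which were kept. Gene positions are from GRCm38. Alternatives were edgeR 4.0.16, DESeq2 1.42.0, pseudocounts 0.1 and 10, no filter, cell filters, a replicate block and leaving out each mouse.

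Members with values of a test are the 5 with the smallest p in malignant cells and macrophages and the 2 in each other population, at a mean of at least 20 CPM, and any past the threshold. From the neighboring lists the 2 with the smallest p at that mean were named in each of malignant cells and macrophages. Members and lists were chosen with earlier results of these data known. A further allele that all groups share is not reported here.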

Additional observations from a re-analysis of the deposited data

How the results depend on the processing

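With 2 mice a group, the spread between mice limits every comparison. Low members and members in the smaller populations also rest on fewer UMIs, and the part of depth was not tested. No member was called in any population or in the interaction with pseudocounts 0.1 and 10, no filter or edgeR, nor in any population with DESeq2 or the replicate block. The same held in malignant cells and macrophages, the populations where these were run, for CPM of summed UMIs and for removal of marked doublets or of cells over 20% mitochondrial UMIs. When each mouse was left out in turn, members called ranged from 0 to 1 in M1 and were 0 elsewhere. Of the alternative values of the named differences, 362 kept their direction and side of the threshold and 9 changed direction, all by leaving out a vehicle mouse. Over the fits that leave out 1 mouse, the log2 difference of Sqle ranged from -0.0934 to 0.7163 in malignant cells, -0.13 to 0.8603 in macrophages, -0.1837 to 0.8955 in M1 and -0.004 to 0.8715 in M2. Cyp51 ranged from -0.1668 to 0.8752 in malignant cells, and Scd2 from -0.1291 to 0.596 and Acsl4 from -0.0051 to 0.5543 in macrophages. In these the low end came without vehicle replicate 2. Fads1 ranged from -0.3353 to 0.0117 in macrophages and Hmgcs1 from -0.423 to 0.025 in Highly proliferative M2 cells, with the high end without vehicle replicate 1. The cause was not tested.

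Genes called over the whole table, leaving out each mouse in turn, ranged from 0 to 5 in malignant cells, 3 to 341 in Epithelial, 0 to 462 in Fibroblast, 0 to 132 in Macrophage, 1 to 72 in Microglia, 12 to 142 in NK, 0 to 6 in Osteoclasts, 0 to 198 in T cell, 0 to 224 in M1, 0 to 50 in M2 and 0 to 256 in Highly proliferative M2 cells, and from 0 to 117 in the interaction. DESeq2 called 44 genes in malignant cells, 20 in Macrophage, 15 in Epithelial, 1 in Fibroblast, 1 in Microglia, 6 in Osteoclasts, 36 in M1, 9 in M2 and 13 in Highly proliferative M2 cells. In Epithelial cells, with 48 genes called by limma, pseudocount 0.1 gave 18, no filter 6 and edgeR 0. Pseudocount 10 gave 2 in Microglia, and edgeR gave 17 in NK, where limma called 7, and 0 in Osteoclasts, where limma called 1.

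Replicate numbers were not shown to pair mice, since the correlation of same-numbered deviations was -0.36 in malignant cells, -0.15 in Microglia and -0.08 to 0.06 elsewhere. With the replicate block, genes called were 85 in Epithelial, 23 in NK, 3 in Osteoclasts and 57 in T cells. With crossed numbers, an alternative chosen after seeing the data, the block called 0 genes in malignant cells and 40 in Microglia, with 0 members.

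On summed UMIs the ratio of malignant cells to macrophages was 1.53 for sterol synthesis and 1.604 for fatty acid synthesis, against 1.35 and 1.31 on mean CPM. Without thinning, the median correlations were 0.2665 among sterol enzymes, 0.182 with fatty acid members, 0.1454 among fatty acid members, 0.082 with the isoprenoid branch, 0.0047 with sterol transport and 0.2004 with cycling markers. The vehicle ratio for sterol synthesis was 1.57 to 1.75 in malignant cells and 1.35 to 1.67 in macrophages with summed UMIs, without marked doublets or cells high in mitochondrial UMIs, in cells with no cycling UMI and, for malignant cells, in the depth band, all chosen after seeing the data. Within the macrophage sub-clusters it was 1.55 in M1, 1.25 in M2 and 1.20 in Highly proliferative M2 cells.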
